A study of Mus musculus with 2 samples.

Results

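The genes described here are 8 markers of bile duct cells and of liver progenitor cells, namely Sox9, Sox4, Krt7, Krt19, Spp1, Cd24a, Epcam and Prom1. They were chosen by name and matched by symbol, and all 8 were found among the 43280 gene symbols counted. Cholangiocytes, the epithelial cells that line the bile ducts, arise from the same embryonic precursor as hepatocytes, and both the ducts and the progenitor cells near the portal vein are recognized by a shared set of proteins. SOX9 drives the biliary program, CK7 and CK19 build the simple epithelial cytoskeleton, osteopontin is secreted, and EpCAM, CD24 and CD133 are surface proteins used to sort such cells. Some periportal hepatocytes are known to express SOX9 without becoming duct cells, so the genes of the set need not be found together.

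The study compared small hepatocytes (SHs), a fraction of small cells with the phenotype of hepatocyte progenitors, with mature hepatocytes (MHs). There was 1 library of each. Both were prepared from poly(A) RNA of cells freshly released by collagenase perfusion from livers of the same C57BL6 mice, and the labels name no agent or transgene. The age on the labels was 20 weeks, whereas the methods give a younger range, and the methods state that cells from several healthy adult animals were used. MHs were collected by low-speed centrifugation and a Percoll gradient that removed dead cells, and were not sorted. SHs came from the supernatant of that spin and were sorted by FACS as CD31-, CD45-, EpCAM- and ICAM-1+ cells. EpCAM, the product of 1 of the 8 genes, was thus itself used to choose the SHs, so that Epcam is no independent readout of them.

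The MH library held 16979136 counted reads and the SH library 42356444, which was 2.49-fold more. Levels are given as reads per 1000000 counted reads (RPM) with exact 95% Poisson intervals. Ratios of SHs over MHs are on the log2 scale with 0.5 reads added to each count, each with a 95% Clopper-Pearson interval. The intervals cover counting error only, since there were no replicates and no molecular identifiers. No p-value was computed, and every difference is one between these 2 libraries. A count of 3 reads, taken as the smallest level that the depth could show, was 0.177 RPM in MHs and 0.0708 RPM in SHs. Both libraries carried the hepatocyte label in their markers: Alb, which encodes albumin, had 945837 MH reads and 2577617 SH reads, and Hnf4a, a master regulator of hepatocytes, had 10753 and 27488.

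The 8 genes fell into a detected pair and 6 that were at or near the floor. Sox9 and Spp1 had at least 92 reads in each library, whereas none of the other 6 had more than 6 reads in MHs or more than 1 read in SHs. Krt7, Krt19, Cd24a and Prom1 had 3 reads or fewer in both libraries. The summed level of the 8 genes was 14.2 RPM in MHs and 14.2 RPM in SHs, and Sox9 and Spp1 made up nearly all of it. Within the pair the directions were opposite, with Sox9 1.42-fold higher in SHs and Spp1 1.25-fold higher in MHs. Of the 8, only these 2 had at least 10 reads in the libraries combined, and by its interval 1 was higher in SHs, beside 16.8% of all 15521 genes past that minimum, and 1 was lower, beside 15.5%. A difference in either direction was thus common among all genes, and the 2 markers do not stand apart by it.

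**Figure D1:**
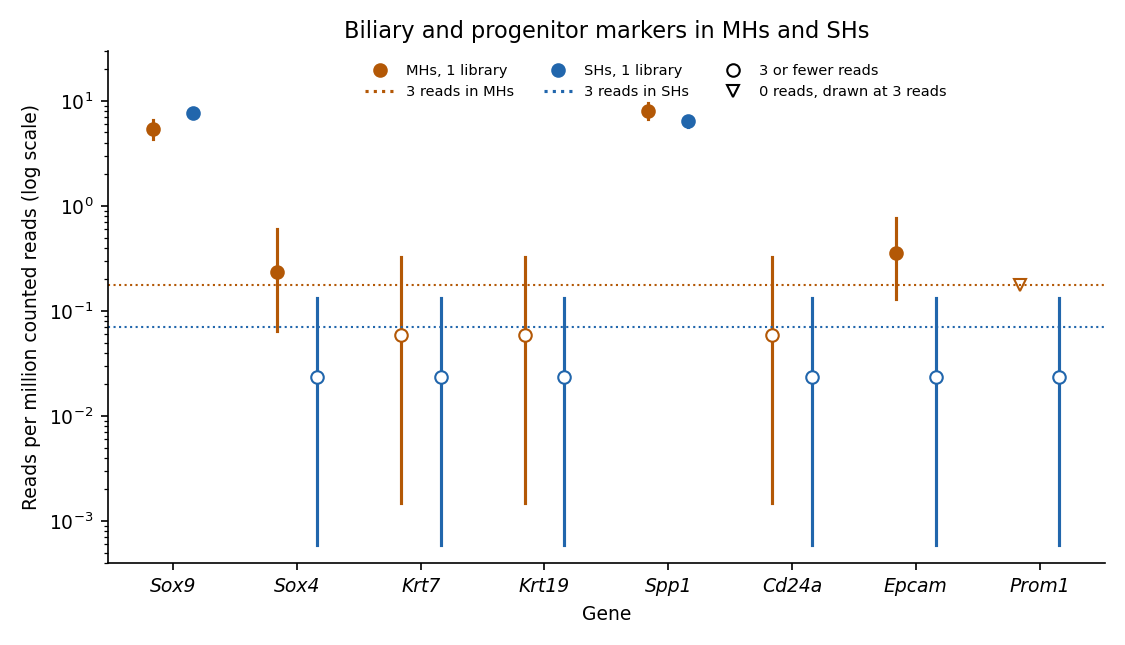
Level of each of the 8 marker genes in the MH library and the SH library, in reads per 1000000 counted reads on a log axis, with exact 95% Poisson intervals for counting error and n = 1 library per condition. Sox9 and Spp1 lay between 5.42 and 8.01 RPM, and the other 6 genes lay at 0.353 RPM or less.

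Sox9 encodes the transcription factor that marks the ductal plate, adult bile ducts and a subset of periportal hepatocytes. The gene lies on the forward strand at chr11:112782224-112787760 of mm10 (ENSMUSG00000000567.5). It was counted with 92 reads in MHs against 325 in SHs, and the SH count corresponds to 130 reads at the depth of the MH library. Its level was 5.42 RPM in MHs (4.37 to 6.65) and 7.67 RPM in SHs (6.86 to 8.55), so the intervals did not overlap. The log2 ratio was 0.50 (0.16 to 0.85), a 1.42-fold higher level in SHs whose interval reached from 1.12-fold to 1.80-fold. Among the 3853 genes with 200 to 800 reads, the range in which Sox9 and Spp1 fell, 5.04% had a log2 ratio as high as that of Sox9, and the median was 0.02. Sox9 therefore lay in the upper tail of genes of similar depth, in a position shared by many other genes. None of its annotated transcript sequence was shared, over stretches of 50 bases, with a transcript of another gene.

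Spp1 encodes osteopontin, a secreted phosphoprotein of cholangiocytes that macrophages and activated stellate cells also make. The gene lies on the forward strand at chr5:104435118-104441050 of mm10 (ENSMUSG00000029304.14). The MH library held 136 reads of it and the SH library 271, or 109 at the depth of the MH library. Its level was 8.01 RPM in MHs (6.72 to 9.47) and 6.40 RPM in SHs (5.66 to 7.21), and these intervals overlapped. The log2 ratio was -0.33 (-0.63 to -0.02), which is a level 1.25-fold higher in MHs with an interval of 1.01 to 1.54. The upper end came close to 0, and it lay above 0 when the libraries were scaled by protein-coding reads (0.01) or with the 10 most-read genes left out (0.02). Of the 3853 genes of similar depth, 11.2% had a ratio as low as that of Spp1. Of its transcript sequence, 11.6% was shared with Gm42793, an overlapping gene model on the same strand that is not among the symbols counted.

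The difference between Sox9 and Spp1 does not depend on how the libraries are scaled. There were 0.676 reads of Sox9 for each read of Spp1 in MHs and 1.20 in SHs. This is an odds ratio of 1.77 (1.29 to 2.45), or a difference of 0.83 between their log2 ratios (0.36 to 1.29). Hnf4a was set beside each of them as a hepatocyte reference, a pairing chosen after the values were seen. Relative to Hnf4a, Sox9 was higher in SHs by 0.47 on the log2 scale (0.13 to 0.82). Spp1 differed from Hnf4a by -0.36 (-0.66 to -0.05). The intervals of these 3 pairs were not adjusted for their number. The pair thus moved apart between the libraries, with the ratio of Sox9 to Spp1 higher in SHs.

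**Figure D2:**
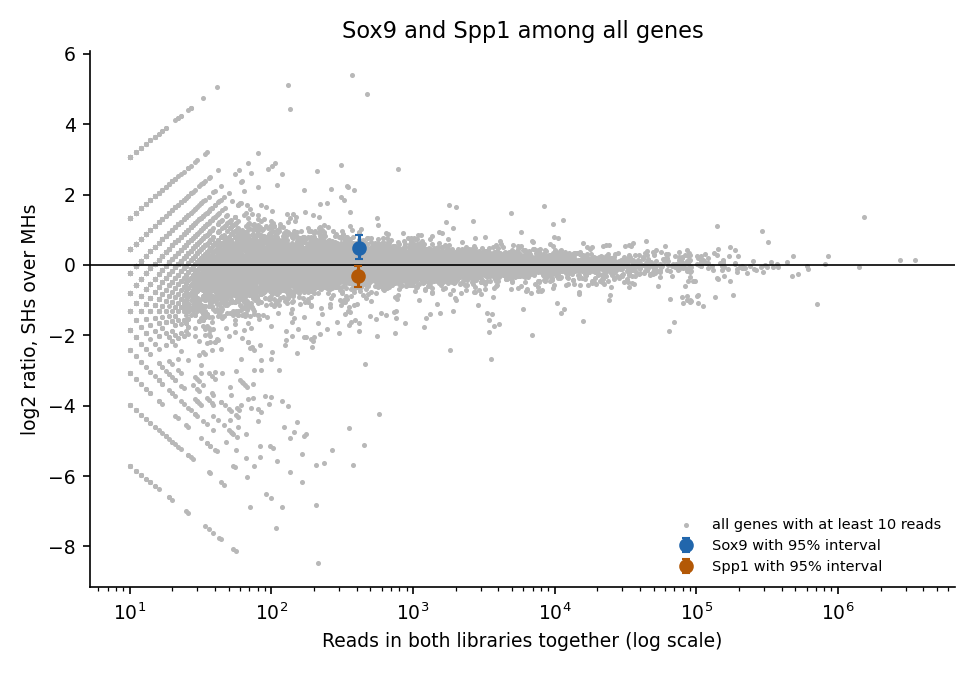
Log2 ratio of SHs over MHs against reads over both libraries (log axis) for all genes with at least 10 reads, with Sox9 and Spp1 marked by their 95% intervals. Sox9 at 0.50 and Spp1 at -0.33 lay on opposite sides of 0, at the upper and lower parts of the cloud of genes with similar read numbers.

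Levels of different genes were compared per length, as reads per kilobase of annotated exon per 1000000 counted reads (RPKM). Spp1 had the highest level of the 8 in both libraries, with 4.86 RPKM in MHs and 3.88 RPKM in SHs. Sox9 followed with 1.31 RPKM in MHs and 1.86 RPKM in SHs. The counting intervals of the pair did not overlap in either library: in SHs that of Spp1 started at 3.43 RPKM and that of Sox9 ended at 2.07 RPKM. Among 20728 protein-coding genes, Spp1 ranked 3673 by level in MHs and 4304 in SHs, above 82.3% and 79.2% of them. Sox9 ranked 7238 in MHs and 6356 in SHs, above 65.1% and 69.3% of them. The 20728 genes include those without a read, which in MHs began at rank 13542. Sox9 in MHs was thus near the middle of the coding genes with a read, and Spp1 was in their upper part. Both were far below the hepatocyte keratins described below.

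In MHs the order below Sox9 was Epcam with 0.161 RPKM, Sox4 with 0.0491, Krt19 with 0.0318, Cd24a with 0.0228 and Krt7 with 0.00836, followed by Prom1 with no read. Neighbours in the order from Epcam downwards had overlapping counting intervals. In SHs each of the 6 had a single read, so their order there reflects exon length alone and is not a measure of expression.

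Sox4 encodes a transcription factor that acts beside SOX9 in bile duct development. The gene lies at chr13:28948919-28953713 on the reverse strand. It had 4 reads in MHs, or 0.236 RPM (0.0642 to 0.603), and 1 read in SHs, or 0.0236 RPM (0.0006 to 0.131). The log2 ratio was -2.90 and its interval of -8.94 to 0.02 included 0, so a difference was not shown at this depth. Of the Sox4 transcript sequence, 54.1% was shared with Gm26735 on the opposite strand, which had 0 reads in both libraries. Whether strand was used in the counting is not given in the sources used here, so reads of a gene and of an antisense partner cannot be told apart.

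Krt7 and Krt19 encode the type II and type I keratins CK7 and CK19, which pair in the filaments of duct epithelium. Krt7 lies at chr15:101411043-101430313 on the forward strand and Krt19 at chr11:100140810-100148665 on the reverse strand. Each had 1 read in MHs and 1 read in SHs. The level was 0.0589 RPM in MHs (0.0015 to 0.328) and 0.0236 RPM in SHs (0.0006 to 0.131) for either gene, and no fold is given because both libraries were at or below 3 reads. None of the Krt19 transcript sequence and 0.916% of that of Krt7 was shared with other genes. Krt7 overlaps the antisense gene Gm671, which is not among the symbols counted. Per length, the upper limits in SHs were 0.0187 RPKM for Krt7 and 0.0709 RPKM for Krt19, far below the 1.86 RPKM of Sox9 in the same library.

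Cd24a, Epcam and Prom1 encode the surface proteins CD24, EpCAM and CD133. Cd24a (chr10:43578284-43584265, forward strand) had 1 read in each library. Prom1 (chr5:43993620-44102032, reverse strand) had 0 reads in MHs, where the upper end of the Poisson interval was 0.217 RPM, and 1 read in SHs. Both were therefore at or below the floor in MHs and SHs. For Epcam (chr17:87635979-87651129, forward strand) there were 6 MH reads, or 0.353 RPM (0.130 to 0.769), and 1 SH read. The log2 ratio was -3.43 with a counting interval of -9.43 to -0.86, and it rests on 7 reads in all. Shared transcript sequence was 0% for Epcam, 2.75% for Cd24a and 5.10% for Prom1, which overlaps Gm42716 on its own strand and Gm16401 on the other.

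The 6 low genes together had 13 reads in MHs and 6 in SHs. Their summed level was 0.766 RPM in MHs (0.408 to 1.31) and 0.142 RPM in SHs (0.0520 to 0.308), and Epcam and Sox4 supplied 10 of the 13 reads in MHs. Epcam alone supplied 6 of these, and SHs were sorted as EpCAM- cells, so the sum is no independent readout of SHs either. In these bulk samples, fewer cells of a type and less RNA per cell cannot be told apart.

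Promoter sequence, from 250 bases before to 50 bases after a transcription start, was found in RefSeq (GRCm38.p6) for 5 of the 8 genes. It is shown for Spp1 as a detected gene and for Krt7 as a gene at the floor, with CG dinucleotides in capitals. The windows are chr5:104434861-104435160 on the forward strand for Spp1 and chr15:101412153-101412452 on the forward strand for Krt7.
Spp1: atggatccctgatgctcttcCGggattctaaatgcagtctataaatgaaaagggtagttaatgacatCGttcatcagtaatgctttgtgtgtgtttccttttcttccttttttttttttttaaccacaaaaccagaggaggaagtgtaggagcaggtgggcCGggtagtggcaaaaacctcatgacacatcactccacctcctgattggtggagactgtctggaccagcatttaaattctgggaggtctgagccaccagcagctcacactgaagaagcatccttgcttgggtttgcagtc
Krt7: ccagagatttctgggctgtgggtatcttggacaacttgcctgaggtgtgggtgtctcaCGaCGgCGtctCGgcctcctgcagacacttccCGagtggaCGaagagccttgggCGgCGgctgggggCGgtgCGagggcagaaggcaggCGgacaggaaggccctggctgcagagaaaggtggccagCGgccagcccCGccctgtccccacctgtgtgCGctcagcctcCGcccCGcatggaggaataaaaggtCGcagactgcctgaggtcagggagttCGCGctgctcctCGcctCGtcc
The Spp1 window held 3 CG dinucleotides, and 31.4% of 32851 RefSeq windows of this length held as few. The Krt7 window held 21, and 24.8% of all windows held as many. Of the other genes near the floor, the windows of Epcam and Sox4 held 11 and 12, and 2 windows of Prom1 held 10 and 4. A second Spp1 window held 3. The counts describe sequence composition only, and no methylation was measured.

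Other biliary genes were examined as a list of 19, chosen with earlier results of these data known. Of these, 10 had at least 10 reads in the libraries combined, and 4 were higher in SHs by their interval, none was lower and 6 had intervals that included 0, beside 16.8% higher and 15.5% lower over all genes past that minimum. Of the 4, Ddr1 and Bicc1 had 3 reads in MHs and passed the minimum through SHs alone. The median log2 ratio of the 10 was 0.44, beside 0.02 over all such genes. Pkhd1, which encodes the fibrocystin of the primary cilium, had 177 MH reads and 598 SH reads, which gave a log2 ratio of 0.43 (0.19 to 0.69). This log2 ratio was close in size to the 0.50 of Sox9.

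Slc4a2, the chloride and bicarbonate exchanger, had 561 MH reads and 1386 SH reads and a log2 ratio of -0.01 (-0.16 to 0.13). Slc10a2, the apical bile acid transporter, had 135 and 282 reads with a ratio of -0.26 (-0.56 to 0.05). Ezr, which encodes ezrin, had 26 and 57 reads and an interval that included 0. The other genes named from this list had few reads in MHs, and they were picked after their values were seen. Ddr1, a collagen receptor, had 3 MH reads and 78 SH reads, 10.4-fold more per counted read (3.44 to 51.6). Bicc1, an RNA-binding protein, had 3 and 27 reads, 3.61-fold more per counted read in SHs (1.11 to 18.6). Elf3 had 2 and 19 reads and Slc5a1, a sugar transporter, 6 and 13, each with an interval that included 0.

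The channel and receptor genes that define secretory cholangiocytes were at the floor as well. Cftr and Sctr each had 1 read in MHs and 0 in SHs. Ggt1 had 0 and 1, Muc1 0 and 2, and Cldn7 and St14 each had 1 and 2 reads. Cldn4, Tspan8 and Ehf had no read in either library. In all, 9 of the 19 genes had 3 reads or fewer in both libraries, as had 4 of the 8 markers. Both lists thus held well-counted genes beside genes at the floor.

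Other progenitor genes formed a list of 10, of which 6 had at least 10 reads. Of these 6, 1 was higher in SHs, 3 were lower and 2 had intervals that included 0, with a median log2 ratio of -0.25. The shares over all genes were 16.8% higher and 15.5% lower, and Afp and Cd44 passed the minimum of reads only through the library in which they were high. Onecut2, a transcription factor of the early liver, had 639 MH reads and 1198 SH reads, a log2 ratio of -0.41 (-0.55 to -0.27). Lgr5, the receptor of R-spondins that marks hepatocytes at the central vein in resting liver, had 39 and 23 reads, a ratio of -2.07 (-2.89 to -1.30). Cd44, a hyaluronan receptor that leukocytes also carry, had 16 and 3 reads, a log2 ratio of -3.56 (-6.15 to -1.93). Afp, the alpha-fetoprotein of fetal hepatocytes, was the gene that was higher, with 4 MH reads and 29 SH reads and a ratio of 1.39 (0.03 to 3.51). Tnfrsf12a, the TWEAK receptor, had 85 and 200 reads and Itga6 23 and 58, both with intervals that included 0. Foxl1 had no read in either library, Dlk1 had 2 and 3, Ncam1 2 and 2, and Igf2bp3 0 and 2.

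**Figure D3:**
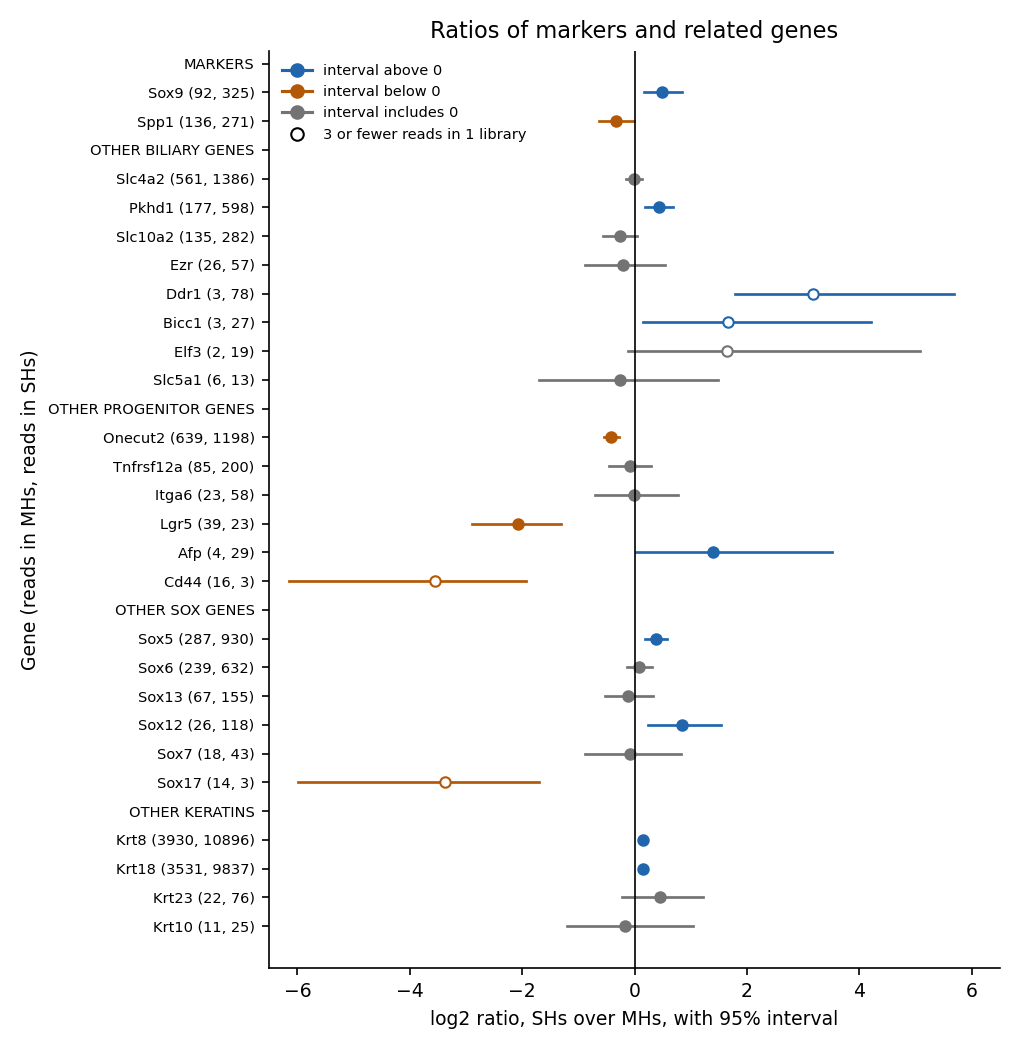
Log2 ratio of SHs over MHs with 95% Clopper-Pearson intervals for markers, other biliary and progenitor genes, other Sox genes and other keratins with at least 10 reads, as far as they are reported here, with 1 library per condition and open points where a library had 3 reads or fewer. Pkhd1 at 0.43 and Sox9 at 0.50 had intervals above 0, Onecut2 and Lgr5 had intervals below 0, and genes with few reads had intervals spanning several log2 units.

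The relatives of Sox9 and Sox4 were looked at as a family. Of 19 Sox genes, 6 besides Sox9 had at least 10 reads in all. Of the 6, 2 were higher in SHs, 1 was lower and 3 had intervals that included 0, beside 16.8% higher and 15.5% lower over all genes. Sox5 had 287 MH reads and 930 SH reads, a log2 ratio of 0.38 (0.19 to 0.57), and Sox12 had 26 and 118 reads, a ratio of 0.84 (0.24 to 1.54). Sox6 had 239 and 632 reads and Sox13 67 and 155, both with intervals that included 0. Per length, the Sox9 level of 1.86 RPKM in SHs was followed by Sox5 with 1.53 RPKM, Sox6 with 1.01 RPKM and Sox13 with 0.849 RPKM. Sox17, an endothelial and early biliary factor named here after its values were seen, had 14 MH reads and 3 SH reads, a log2 ratio of -3.37 (-5.98 to -1.70). It was the gene that was lower, and it passed the minimum of reads through MHs alone.

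Keratins showed which filaments the cells did transcribe. Of 51 keratin genes, 4 had at least 10 reads, and Krt7 and Krt19 were not among them. Krt8 and Krt18, the keratin pair of hepatocytes and of all simple epithelia, had 3930 and 3531 reads in MHs and 10896 and 9837 reads in SHs. Their log2 ratios were 0.15 (0.10 to 0.21) and 0.16 (0.10 to 0.22). Krt8 reached 118 RPKM in MHs and 131 RPKM in SHs, whereas Krt19 reached 0.0318 and 0.0127 RPKM. Krt23 had 22 MH reads and 76 SH reads and Krt10 had 11 and 25, both with intervals that included 0. The hepatocyte keratins were therefore abundant in both libraries while the duct keratins had single reads.

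**Figure D4:**
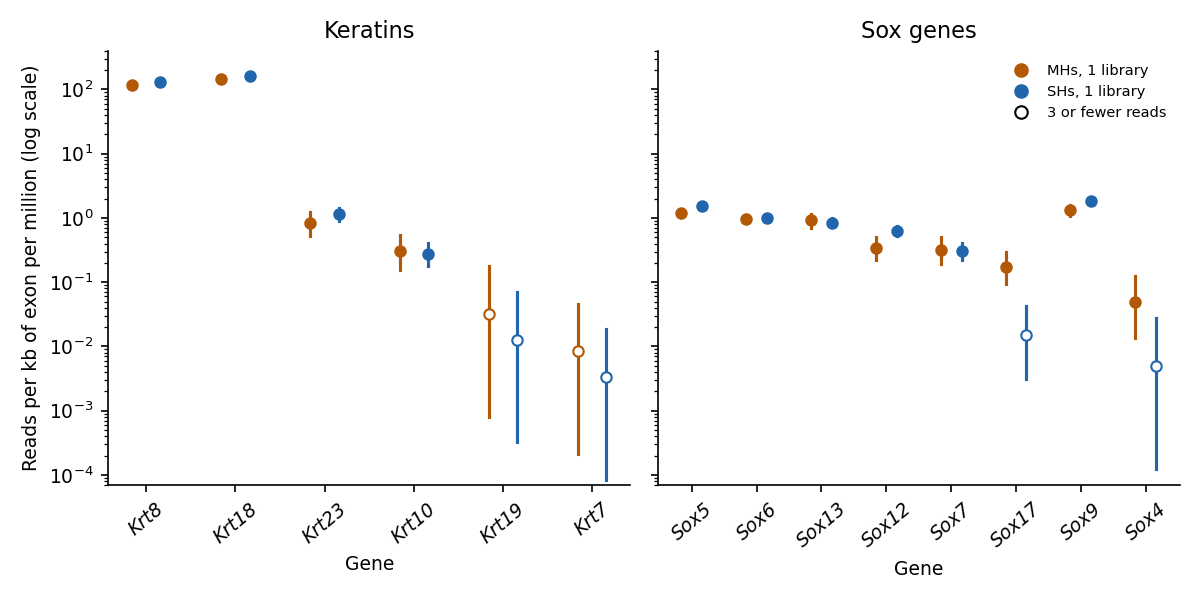
Level per length (RPKM, log axis) of keratins and Sox genes in the MH library and the SH library, with exact 95% Poisson intervals and open points for 3 reads or fewer. Krt8 and Krt18 stood at 118 to 162 RPKM, Sox9 at 1.31 to 1.86 RPKM, and Krt7 and Krt19 at 0.0318 RPKM or less.

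Endothelial, macrophage and stellate markers were lower in SHs in their summed levels. All 12 endothelial genes were lower in SHs by their intervals, beside 15.5% of all genes with at least 10 reads. Their summed level was 113 RPM in MHs and 5.24 RPM in SHs, with a median log2 ratio of -4.99. Lyve1 was the endothelial gene with no read in SHs. Of 9 macrophage genes, 8 had at least 10 reads and 7 of these were lower in SHs, with a summed level of 17.7 RPM in MHs and 0.921 RPM in SHs. Marco had no read in SHs. Of 11 stellate and mesenchymal genes, 9 had at least 10 reads and all 9 were lower, with summed levels of 27.0 and 2.76 RPM. In SHs, 2 of the endothelial, 5 of the macrophage and 5 of the stellate and mesenchymal genes had 3 reads or fewer. Those among them with at least 10 reads in all passed that minimum through MHs. The SH gate removed CD31+ and CD45+ cells, and MHs were not sorted.

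Summed levels of the lymphocyte list were 0.648 RPM in MHs and 0.165 RPM in SHs, those of the neutrophil list 0.177 and 0.0944 RPM, and the mesothelial list had 0 reads in MHs and 1 in SHs. In the erythroid list, Alas2, the heme synthesis enzyme of red cells, had 2008 and 5784 reads, while the globin genes had between 0 and 9. Spp1, Onecut2, Lgr5, Cd44 and Sox17 are grouped here because they were lower in SHs, as were 15.5% of all genes with at least 10 reads. That they share a direction with the endothelial, macrophage and stellate markers follows from this choice. The sizes differed, with -0.33 for Spp1 and -0.41 for Onecut2 beside a median of -4.99 for the endothelial list. Cd44 and Sox17 passed the minimum of reads through MHs alone, and the interval of Spp1 included 0 under some other scalings. Epcam is left out because SHs were sorted as EpCAM- cells and it had 7 reads in all. The part of endothelial, macrophage or stellate cells, or of position along the lobule, in these ratios was not tested. Sox9, Pkhd1, Ddr1, Bicc1, Afp, Sox5 and Sox12 were among the genes that were higher in SHs.

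Periportal hepatocyte genes moved in the direction of Sox9. All 5 of the list were higher in SHs by their intervals, beside 16.8% of all genes with at least 10 reads, with a median log2 ratio of 0.46. These genes are deeply counted, so that small differences pass, and in the list of 6 general hepatocyte genes 5 were higher as well, with a median of 0.05. Cdh1, which encodes E-cadherin, had a ratio of 0.28, Mfsd2a, a lipid transporter of periportal hepatocytes, 0.46, the glutaminase Gls2 0.53, the cytochrome Cyp2f2 0.06, and the histidine-degrading enzyme Hal 0.55. The 0.50 of Sox9 fell within that range. The part of the position of cells along the lobule in the Sox9 ratio was not tested.

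**Figure D5:**
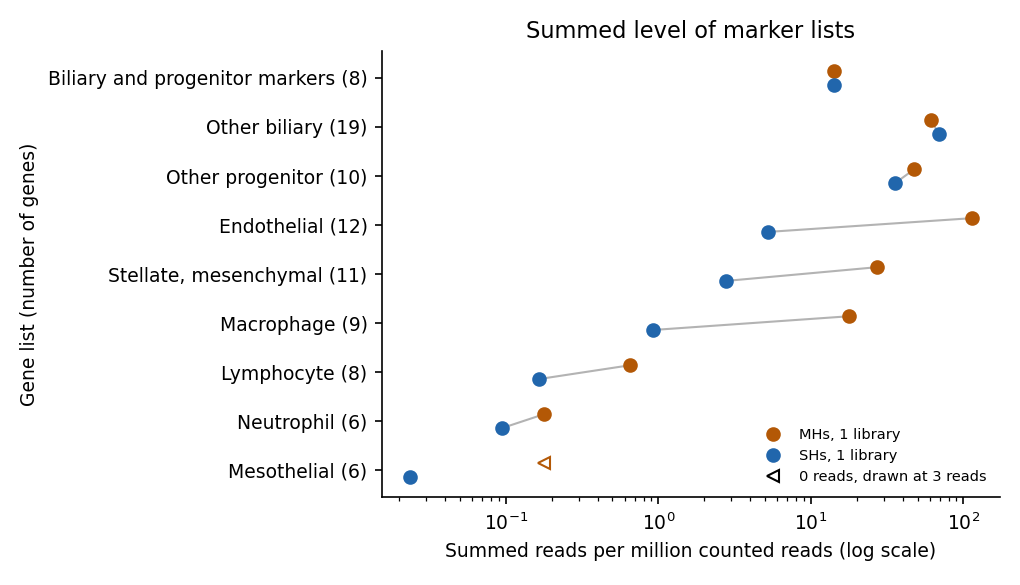
Summed level of the 8 markers and of the other biliary, other progenitor and non-hepatocyte cell lists in the MH library and the SH library. Values are reads per 1000000 counted reads on a log axis, with a line joining the libraries and a triangle at 3 reads for a list with no read. The hepatocyte, periportal hepatocyte, erythroid, keratin and Sox lists are not drawn. The 8 markers stood at 14.2 RPM in both, whereas the endothelial list went from 113 RPM in MHs to 5.24 RPM in SHs.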

How the data were processed

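Poly(A) RNA of 1 library of MHs and 1 library of SHs was sequenced on an Ion Proton system. Per the methods, the authors trimmed the reads and aligned them to mm10 in CLC Genomics Workbench with a limit on hits per read, and computed RPKM. The deposited values are whole read counts per gene symbol, without normalization. The counting program and its annotation are not given in the sources used here, so reads of overlapping or near-identical genes are uncertain.

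Counts were divided by the total of counted reads (16979136 in MHs, 42356444 in SHs). Ratios had 0.5 reads added, and 95% intervals were exact (Clopper-Pearson or Poisson). Counts of genes and medians used at least 10 reads over both libraries. Differences between a pair of genes were conditional odds ratios. Exon lengths and positions came from GENCODE M21, which held 39469 of the 43280 symbols. Adgre1 was counted under its older symbol Emr1.

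The 8 genes and the lists were chosen with earlier results of these data known. Named were the 8 genes, genes overlapping the 8, and defining markers with 3 reads or fewer. Of the biliary, progenitor, periportal, keratin and Sox lists, up to 5 genes with the most reads were named as well. The general hepatocyte list and the lists of other cell types are given mainly as counts and sums, with few of their genes named. Further genes are marked in the text where they appear. Some genes of the biliary list enter its counts and are not reported here by name. The alternatives were scaling by TMM (edgeR 4.0.16), by size factors (DESeq2 1.42.0), by protein-coding reads or with the 10 most-read genes left out, 2 added reads, Jeffreys intervals, other read minimums, a 2-fold limit and length of the longest transcript. Python 3.11.15, scipy 1.17.1, pandas 2.3.3, numpy 2.4.6, matplotlib 3.10.9 and R 4.3.3 were used, and the calculation was tested on simulated counts.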

Additional observations from a re-analysis of the deposited data

How the results depend on the processing

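The ratio of Sox9 lay between 0.48 and 0.53 on the log2 scale under the alternatives tried, with its interval above 0 under each of the 4 other scalings. The ratio of Spp1 depended more on the scaling. It was -0.30 with the 10 most-read genes left out of the total and -0.30 with the total of protein-coding genes, and both intervals then included 0. Under these settings 0 of the 8 markers had an interval below 0, where the total of counted reads gave 1. With no minimum of reads 2 markers did, as Epcam was added, and the median of the markers went from 0.08 to -1.32 because 6 genes with few reads entered it. A 2-fold limit left 0 markers above and 0 below. With at least 30 reads fewer genes were counted, and the stellate and mesenchymal genes below 0 went from 9 to 5. Those of the macrophage list went from 7 to 5, of the endothelial list from 12 to 11 and of the other progenitor list from 3 to 2. The lymphocyte list and the Sox genes each went from 1 to 0. No paired analysis was possible because each condition had a single library, and leaving out a replicate was not possible for the same reason. Depth limits the genes at 3 reads or fewer, for which a level in a small number of cells could not be shown.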

Other observations

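The genes within 1 Mb of Sox9 and Spp1 were listed after the values of both were seen. Near Sox9, 8 genes had at least 10 reads in all. Of these, 1 was higher in SHs and 7 had intervals that included 0. The gene that was higher was Sstr2, a somatostatin receptor, with 12 MH reads and 198 SH reads, a log2 ratio of 2.67 (1.89 to 3.70). Near Spp1, 17 genes had at least 10 reads, and 3 were higher in SHs, 6 lower and 8 had intervals that included 0. Over all genes with that many reads, 16.8% were higher and 15.5% lower. The nearest of them was Pkd2, which encodes the polycystin of the primary cilium and begins 18400 bases away. It had 173 MH reads and 335 SH reads, a log2 ratio of -0.37 (-0.63 to -0.09), beside -0.33 for Spp1. The next in distance were BC005561 at 67302 bases, with a ratio of -0.27 (-0.56 to 0.02), and D930016D06Rik at 84685 bases, with -0.49 (-0.87 to -0.10). Hsd17b13, a lipid droplet enzyme of hepatocytes 457708 bases away, had a ratio of 0.32. Genes within 1 Mb of Spp1 thus went either way, while those closest to it had ratios below 0, and no test was made.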
